A study of Mus musculus with 20 samples.

Results

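The genes Pou2af1, Irf4, Prdm1, Xbp1, Mzb1, Jchain, Derl3, Fkbp11 and Sdc1, which B cells use as they become antibody-secreting plasma cells, were followed across 20 mouse tumours in 6 treatment groups. They were taken by symbol, 9 of the 55406 genes of the deposited count table, and all 9 passed the filter on low counts that left 18144 genes for testing. An activated B cell becomes a plasma cell when Irf4 and Prdm1 switch off the B cell programme and Xbp1 enlarges the secretory machinery for antibody output. Plasma cells in ovarian tumours are known from histology, and in bulk tissue their RNA is read together with that of tumour, stromal and other immune cells. The symbols Xbp1, Sdc1 and Fkbp11 are not exclusive to plasma cells, since other secretory and epithelial cells use them too.

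Tumours grew in C57/BL6 female mice injected intraperitoneally with ID8 cells, an ovarian cancer line derived from mouse surface epithelium, which here carried luciferase and lacked Trp53 and Brca1. Every group shared that genotype, so no comparison bears on the loss of either gene. The groups were Combo (olaparib, anti-CTLA-4, anti-PD-L1 and anti-VEGFA, n = 4), PARPi-ICB (olaparib with both checkpoint antibodies, n = 3), PARPi-aVEGF (olaparib with anti-VEGFA, n = 4), ICB (both checkpoint antibodies, n = 3), PARPi (olaparib, n = 3) and untreated control (n = 3). Olaparib, an inhibitor of the DNA repair enzyme PARP, was given by mouth at 40 mg/kg per day, and the antibodies intraperitoneally, at 100 µg for anti-CTLA-4, 200 µg for anti-PD-L1 and 20 µg for anti-VEGFA. The age of the animals and the time of sampling are not given in the sources used here, and each library is read as 1 mouse from the sample titles.

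Library totals ran from 26.9 M to 34.7 M counts. Levels are counts per 1 M counts of the scaled library (CPM) and differences are log2 fold changes with their SE from edgeR. Signs of library quality differed between the groups. Lars2, Mir6236 and Rn7sk, which tend to track RNA integrity or depletion, had a mean log2 CPM of 2.96 to 4.63 in Combo, 2.95 to 3.53 in PARPi-ICB, 2.72 to 2.81 in PARPi-aVEGF, 2.74 to 3.08 in ICB, 2.99 to 4.31 in PARPi and 4.47 to 4.82 in control libraries. Pancreatic acinar enzymes stood high in 4 libraries, namely Combo replicate 2, PARPi-aVEGF replicates 1 and 4 and ICB replicate 3. Counts of the followed plasma cell genes called against control are given without these libraries as well. Results for other genes and for lists of genes include these libraries throughout, and their dependence on them was not tested.

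Treated tumours on average held more RNA of the plasma cell genes than untreated ones, with the highest group means in Combo or PARPi-ICB tumours. In the comparisons made between treated groups edgeR called Fkbp11 alone, in PARPi-ICB against PARPi tumours. In Combo tumours 9 of 9 genes rose against control (edgeR adjusted p 5.13e-05 to 0.0109), where 12.6% of all genes tested were called higher. In PARPi-ICB tumours 9 of 9 also rose (edgeR adjusted p 0.000129 to 0.00957), against 9.58% of all genes. In PARPi-aVEGF tumours 8 rose, all but Fkbp11, against 9.99% of all genes. With ICB alone 6 rose, namely Pou2af1, Irf4, Prdm1, Mzb1, Jchain and Derl3, against 1.23% of all genes. With PARPi alone 1 gene, Pou2af1, was called (edgeR adjusted p 0.0330), against 0.0551% of all genes, although 8 of 9 were higher at an unadjusted p under 0.05, as were 6.92% of all genes. The median log2 fold change over the 9 genes was 2.15 in Combo, 2.14 in PARPi-ICB, 1.77 in PARPi-aVEGF, 1.33 in ICB and 1.40 in PARPi tumours, while the median over all genes tested lay between -0.02 and 0.00 in the same 5 comparisons. These comparisons share the 3 control tumours, so their values are set side by side and are not independent of each other. In bulk tissue, more plasma cells and more of this RNA per cell cannot be told apart.

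**Figure D1:**
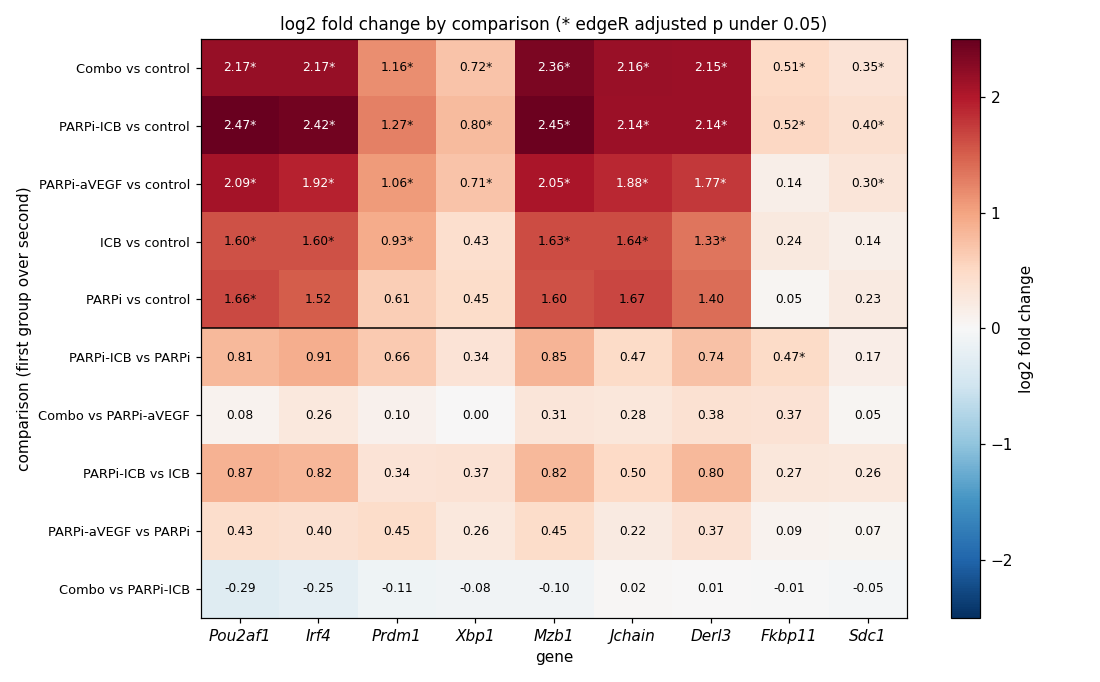
Log2 fold change of each gene (columns) in 10 comparisons (rows, first group over second; the 5 rows above the line are against control), with the colour and the number giving the size and an asterisk marking an edgeR adjusted p under 0.05. The 5 rows against control hold positive values only, up to 2.47 for Pou2af1 in PARPi-ICB, while 1 cell is starred below the line.

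The map of fold changes shows that genes differed in size of change far more than treatments did. Values for Pou2af1, Irf4, Mzb1, Jchain and Derl3 lay between 1.33 and 2.47 in every comparison with control. Prdm1 lay between 0.61 and 1.27 and Xbp1 between 0.43 and 0.80. Fkbp11 and Sdc1 had the smallest values, 0.05 to 0.52 for Fkbp11 and 0.14 to 0.40 for Sdc1. Every treated library lay above every control library for 9 of 9 genes in Combo (14.9% of all genes tested did so), 9 of 9 in PARPi-ICB (17.5% of all genes), 9 of 9 in PARPi-aVEGF (14.2%), 8 of 9 in ICB (all but Sdc1, 11.7%) and 8 of 9 in PARPi (all but Fkbp11, 11.2%).

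The counts for single agents rest on few tumours. Without 1 library at a time, edgeR called 2 genes in ICB without control replicate 1, 1 without control replicate 2, 3 without control replicate 3, 3 without ICB replicate 1, 2 without ICB replicate 2 and 4 without ICB replicate 3, with Pou2af1 among them each time. The quality signs were higher in all 3 controls than in every treated library but Combo replicate 4. With their mean log2 CPM as a covariate, edgeR called 9 genes in Combo, 7 in PARPi-ICB (not Fkbp11 or Sdc1) and 0 in PARPi-aVEGF, ICB and PARPi. In treated groups other than Combo no library reached the control range of these signs, so treatment and library quality cannot be told apart there. In Combo only replicate 4 reached it, at 4.63, so the separation from library quality in that group rests on 1 library. In the fit with the covariate Pou2af1 was at 2.15 in PARPi-aVEGF (edgeR adjusted p 0.105, beside 2.09 without the covariate), and in ICB at 1.65 (0.249, beside 1.60). Jchain was at 1.84 in ICB with the covariate (edgeR adjusted p 0.34, beside 1.64).

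The upstream sequence of 3 genes is shown as examples from the 7 that moved together across the tumours. Motifs were shared by Pou2af1 and Derl3, and none of those searched was in Jchain. Of the other genes of the 7 with a sequence, Prdm1 held CCAAT with CCACG, Irf4 held CCACG alone and Xbp1 held none. Fkbp11 and Sdc1, which moved less closely with the others, also held CCAAT with CCACG. Sequences are from the RefSeq promoter table (GRCm38), as 250 bases before the start on the gene's own strand, 5′ to 3′. Capitals mark matches to the motifs listed after them, and Jchain has none.
Pou2af1: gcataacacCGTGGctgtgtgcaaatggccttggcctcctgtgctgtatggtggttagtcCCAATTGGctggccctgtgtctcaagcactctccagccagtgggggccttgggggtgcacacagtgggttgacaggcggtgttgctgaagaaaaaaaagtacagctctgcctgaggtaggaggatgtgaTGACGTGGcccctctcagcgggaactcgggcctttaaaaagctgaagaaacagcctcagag
Derl3: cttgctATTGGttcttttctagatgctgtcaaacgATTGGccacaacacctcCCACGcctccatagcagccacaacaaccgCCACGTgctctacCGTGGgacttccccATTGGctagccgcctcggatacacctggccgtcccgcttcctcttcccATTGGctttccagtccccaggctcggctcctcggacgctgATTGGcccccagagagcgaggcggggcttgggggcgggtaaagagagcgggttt
Jchain: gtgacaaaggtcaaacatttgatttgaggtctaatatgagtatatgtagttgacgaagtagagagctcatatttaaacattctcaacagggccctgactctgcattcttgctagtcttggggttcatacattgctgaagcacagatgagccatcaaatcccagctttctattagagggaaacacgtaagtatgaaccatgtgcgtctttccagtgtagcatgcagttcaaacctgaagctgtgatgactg
The windows lie at chr9:51213440-51213689 on the plus strand, chr10:75893148-75893397 on the plus strand and chr5:88527898-88528147 on the minus strand.

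Motifs were searched on both strands from 250 bases before to 50 after the start, in the 8 genes matched in the table, Fkbp11 with 2 starts. The octamer ATGCAAAT, bound by the factors that the Pou2af1 product joins, was in 0 of 8 genes and in 1.74% of all 32851 promoters. GTGAAAG, a core recognised by the Prdm1 product, was in 0 of 8 and 4.24% of all promoters, and GAANNGAAA, an interferon response element of the kind Irf family proteins bind, in 0 of 8 and 7.52%. TGACGTGG, a sequence bound by unfolded protein response factors, was in Pou2af1 alone and in 0.676% of all promoters. Its shorter core ACGTGG, which overlaps it, was in Pou2af1, Derl3 and Fkbp11 and in 8.31%. CCAAT together with CCACG, the parts of the ER stress response element at any spacing, was in Pou2af1, Prdm1, Derl3, Fkbp11 and Sdc1 and in 11.7% of all promoters. The Fkbp11 matches all lay at 1 of its 2 starts. CCACG overlaps ACGTGG, read on the other strand. These matches describe letters in a window and carry no evidence of binding.

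**Figure D2:**
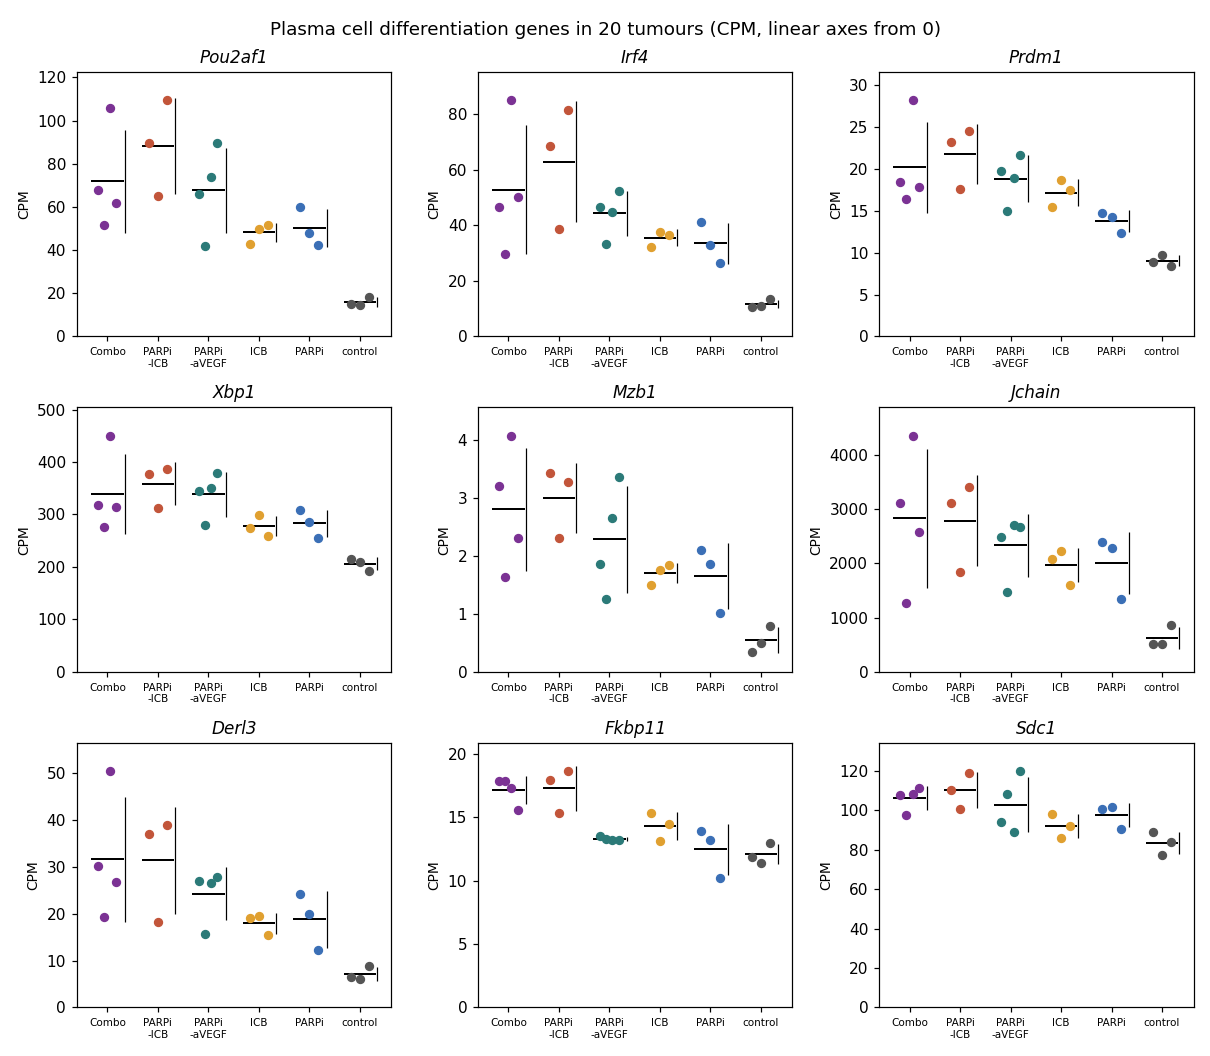
Level of each gene in CPM (linear axes from 0) in every tumour, with 1 point per library, a horizontal line at the group mean and a vertical bar of 1 SD either side, and groups from Combo at the left to control at the right. Control libraries lie lowest for every gene on average, with Pou2af1 at 42.1 to 109 CPM in treated tumours against 14.5 to 18.4 CPM in controls, and the Fkbp11 panel shows raised points mainly in Combo and PARPi-ICB.

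Among the transcriptional regulators, Pou2af1 (ENSMUSG00000032053, chromosome 9, 51213708 to 51240080), a coactivator of octamer-binding factors in B cells, was called in all 5 comparisons with control. It was read at 68.1, 51.7, 106 and 61.6 CPM in Combo, 89.6, 65.2 and 109 CPM in PARPi-ICB, and 65.8, 42.1, 73.8 and 89.4 CPM in PARPi-aVEGF tumours. ICB tumours had 43.0, 49.6 and 51.8 CPM, PARPi tumours 59.9, 48.1 and 42.5 CPM, and control tumours 14.8, 14.5 and 18.4 CPM. Every treated tumour lay above the control range, whereas the treated groups overlapped their neighbours in the order of group means. The log2 fold change against control was 2.17 ± 0.26 in Combo, 2.47 ± 0.27 in PARPi-ICB, 2.09 ± 0.26 in PARPi-aVEGF, 1.60 ± 0.27 in ICB and 1.66 ± 0.27 in PARPi. The call with PARPi alone was lost without any 1 of the control replicates or PARPi replicate 1 or 2 (edgeR adjusted p 0.066 to 0.165), and without the 4 libraries rich in acinar RNA (0.0608), none of which is in that comparison. A sense-intronic gene model, Gm47828, overlaps Pou2af1 on the same strand.

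Irf4 (ENSMUSG00000021356, chromosome 13, 30749226 to 30766976) encodes a factor required for plasma cell formation that activated T cells and dendritic cells also use. Its level was 46.7, 29.8, 85.1 and 50.1 CPM in Combo, 68.5, 38.8 and 81.4 CPM in PARPi-ICB, and 46.8, 33.3, 44.7 and 52.4 CPM in PARPi-aVEGF tumours. With ICB it was 32.1, 37.8 and 36.7 CPM, with PARPi 41.3, 32.9 and 26.5 CPM, and in control tumours 10.7, 11.1 and 13.4 CPM. The lowest treated tumour, a PARPi one, thus still had more than every control, and Combo tumours spanned nearly the whole treated range. Against control Irf4 rose by 2.17 ± 0.30 in Combo (edgeR adjusted p 0.000125), 2.42 ± 0.31 in PARPi-ICB (0.00016), 1.92 ± 0.30 in PARPi-aVEGF (0.000632) and 1.60 ± 0.30 in ICB (0.0154). The PARPi value of 1.52 ± 0.30 missed the threshold (edgeR adjusted p 0.0753).

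Prdm1 (ENSMUSG00000038151, chromosome 10, 44437177 to 44528501), the repressor that ends the B cell programme and that some T cells and macrophages express as well, changed less. It had 18.4, 16.4, 28.2 and 17.8 CPM in Combo, 23.2, 17.7 and 24.5 CPM in PARPi-ICB, and 19.8, 15.0, 18.9 and 21.7 CPM in PARPi-aVEGF tumours. The counts came to 15.4, 18.7 and 17.4 CPM with ICB, 14.8, 14.2 and 12.3 CPM with PARPi, and 8.88, 9.77 and 8.47 CPM in controls. Of all neighbouring pairs in its order of group means, control with PARPi and PARPi with ICB were apart in every library, and the higher groups overlapped. Prdm1 rose by 1.16 ± 0.17 in Combo, 1.27 ± 0.18 in PARPi-ICB, 1.06 ± 0.17 in PARPi-aVEGF and 0.93 ± 0.18 in ICB (edgeR adjusted p 0.000224 to 0.0158), and the PARPi value was 0.61 ± 0.18 (edgeR adjusted p 0.18).

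Xbp1 (ENSMUSG00000020484, chromosome 11, 5520659 to 5525893), the unfolded protein response factor that expands the endoplasmic reticulum, had a high level in every tumour. It averaged 339.6 ± 76.2 CPM in Combo, 359 ± 40.9 CPM in PARPi-ICB, 339 ± 42.5 CPM in PARPi-aVEGF, 278 ± 19.4 CPM in ICB, 283 ± 26.5 CPM in PARPi and 206 ± 11.9 CPM in control tumours (SD, n as above). The lowest treated tumour, at 255 CPM, lay above the 3 controls at 216, 210.0 and 193 CPM. The rise was 0.72 ± 0.14 in Combo, 0.80 ± 0.14 in PARPi-ICB and 0.71 ± 0.14 in PARPi-aVEGF (edgeR adjusted p 0.00132 to 0.00227). ICB at 0.43 ± 0.14 and PARPi at 0.45 ± 0.14 were not called (edgeR adjusted p 0.125 and 0.212). The counts do not separate the spliced form of Xbp1, which makes the active factor, from the unspliced form.

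Of the genes of antibody assembly and secretion, Jchain (ENSMUSG00000067149, chromosome 5, 88519809 to 88527891), which encodes the chain that joins polymeric IgA and IgM, was by far the most abundant. Combo tumours had 3118, 1269.6, 4352 and 2584 CPM, PARPi-ICB tumours 3120.2, 1836 and 3412 CPM, and PARPi-aVEGF tumours 2495, 1477, 2700.4 and 2676 CPM. Single agents gave 2084, 2221 and 1607 CPM with ICB and 2399, 2284 and 1347 CPM with PARPi, and controls had 515, 516 and 867 CPM. Combo replicate 2, the library richest in acinar RNA, was the lowest of all treated tumours and yet lay above all controls. Jchain rose by 2.16 ± 0.36 in Combo, 2.14 ± 0.37 in PARPi-ICB, 1.88 ± 0.35 in PARPi-aVEGF and 1.64 ± 0.37 in ICB (edgeR adjusted p 0.000485 to 0.025). With PARPi the value was 1.67 ± 0.37 and was not called (edgeR adjusted p 0.0826).

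Mzb1, an endoplasmic reticulum cochaperone of B cells that assists antibody assembly, was the least abundant, with 11 to 126 counts per library. Its levels were 3.21, 1.64, 4.08 and 2.31 CPM in Combo, 3.43, 2.32 and 3.27 CPM in PARPi-ICB, and 1.86, 1.27, 2.66 and 3.36 CPM in PARPi-aVEGF tumours. They were 1.51, 1.76 and 1.85 CPM with ICB, 2.10, 1.86 and 1.02 CPM with PARPi, and 0.346, 0.504 and 0.794 CPM in controls. Every treated tumour was above every control, although PARPi replicate 3 and the highest control came close. The rise was 2.36 ± 0.40 in Combo, 2.45 ± 0.41 in PARPi-ICB, 2.05 ± 0.40 in PARPi-aVEGF and 1.63 ± 0.41 in ICB (edgeR adjusted p 0.000532 to 0.0464), and the PARPi value of 1.60 ± 0.41 was not called (0.129). Mzb1 shares sequence on the same strand with Spata24, and reads in the shared stretch may have been left out or split, since the counting mode is not given in the sources used here.

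Derl3 (ENSMUSG00000009092, chromosome 10, 75893413 to 75895941) encodes a membrane protein that helps to clear misfolded proteins from the endoplasmic reticulum, and pancreatic acinar cells are known to use it too. It stood at 30.1, 19.2, 50.3 and 26.6 CPM in Combo, 37.0, 18.2 and 38.8 CPM in PARPi-ICB, and 26.9, 15.7, 26.6 and 27.8 CPM in PARPi-aVEGF tumours. In ICB tumours it had 19.0, 19.5 and 15.4 CPM, in PARPi tumours 24.2, 20.0 and 12.2 CPM, and in controls 6.39, 6.11 and 8.86 CPM. The groups did not overlap the controls, and the 4 libraries rich in acinar RNA were not set apart by a high Derl3 level. Derl3 rose by 2.15 ± 0.34 in Combo, 2.14 ± 0.35 in PARPi-ICB, 1.77 ± 0.33 in PARPi-aVEGF and 1.33 ± 0.34 in ICB (edgeR adjusted p 0.000325 to 0.0492), and its PARPi value was 1.40 ± 0.34 (0.11). Without those 4 libraries the rise in Combo was 2.33, and the ICB value of 1.43 was no longer called (edgeR adjusted p 0.0593).

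Fkbp11 (ENSMUSG00000003355, chromosome 15, 98724366 to 98728198), a peptidyl-prolyl isomerase of the secretory pathway, had an order of its own. Combo tumours had 17.8, 17.8, 17.3 and 15.6 CPM and PARPi-ICB tumours 17.9, 15.3 and 18.6 CPM. PARPi-aVEGF tumours had 13.5, 13.3, 13.2 and 13.2 CPM, ICB tumours 15.3, 13.1 and 14.5 CPM, PARPi tumours 13.9, 13.2 and 10.2 CPM, and controls 11.9, 11.4 and 12.9 CPM. The groups with both olaparib and checkpoint antibodies were the high ones, and PARPi tumours overlapped the controls. Fkbp11 rose by 0.51 ± 0.10 in Combo and 0.52 ± 0.11 in PARPi-ICB (edgeR adjusted p 0.00216 and 0.00382), while ICB at 0.24 ± 0.11, PARPi-aVEGF at 0.14 ± 0.10 and PARPi at 0.05 ± 0.11 were not called (edgeR adjusted p 0.253 to 0.917).

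Sdc1 (ENSMUSG00000020592, chromosome 12, 8771323 to 8793715), the surface proteoglycan used to sort plasma cells and also expressed by epithelia, changed least among the genes called in Combo. It averaged 106 ± 5.95 CPM in Combo, 110.1 ± 9.14 CPM in PARPi-ICB, 103 ± 14.0 CPM in PARPi-aVEGF, 92.1 ± 6.27 CPM in ICB, 97.8 ± 6.13 CPM in PARPi and 83.5 ± 5.72 CPM in control tumours. The rise was 0.35 ± 0.09 in Combo, 0.40 ± 0.10 in PARPi-ICB and 0.30 ± 0.09 in PARPi-aVEGF (edgeR adjusted p 0.0109, 0.00957 and 0.0307). It rests on single tumours, since the Combo call was lost without control replicate 2 (edgeR adjusted p 0.0559) and the PARPi-ICB call without PARPi-ICB replicate 3 (0.056). The PARPi-aVEGF call of Sdc1 was lost without the 4 libraries rich in acinar RNA (edgeR adjusted p 0.11), and without control replicate 2 or 3 or PARPi-aVEGF replicate 2 or 4 (0.0663 to 0.13).

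Control was the lowest of the 6 group means for each gene. PARPi-ICB was the highest for Pou2af1, Irf4, Prdm1, Xbp1, Mzb1, Fkbp11 and Sdc1, and Combo for Jchain and Derl3. For all genes but Fkbp11, PARPi-aVEGF came next after PARPi-ICB and Combo. Tested over all 6 groups at once, 9 of 9 genes differed (edgeR adjusted p 0.000303 to 0.0375), against 20.7% of all genes tested.

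Per kilobase of annotated exon, levels could be set against each other within a tumour. Jchain ranked first in each of the 20 libraries at 205 to 1729 CPM per kilobase, and Xbp1 second at 59.4 to 139 CPM per kilobase. Sdc1 and Pou2af1 came next, at 20.3 to 31.4 CPM per kilobase for Sdc1 and 5.70 to 42.9 CPM per kilobase for Pou2af1. Prdm1 at 1.52 to 5.06 CPM per kilobase and Mzb1 at 0.285 to 3.36 CPM per kilobase were the lowest throughout. The Mzb1 level may be too low, since reads in the stretch shared with Spata24 may have been left out. In PARPi-ICB tumours Pou2af1 had 25.6 to 42.9 and Sdc1 26.5 to 31.3 CPM per kilobase, whereas in controls Pou2af1 had 5.70 to 7.23 and Sdc1 20.3 to 23.3 CPM per kilobase. By the authors' deposited RPKM values, whose implied lengths match the gene span with introns, Jchain and Xbp1 stayed first and second. Pou2af1 then ranked 6 to 7, Sdc1 3 to 5, Mzb1 8 and Prdm1 9. The order below Xbp1 therefore depends on the length used.

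What checkpoint antibodies added to olaparib was asked next. In PARPi-ICB against PARPi tumours 1 gene, Fkbp11, was called, where 0.882% of all genes were called higher. Fkbp11 averaged 17.3 ± 1.75 CPM in PARPi-ICB and 12.5 ± 1.98 CPM in PARPi tumours, a rise of 0.47 ± 0.11 (edgeR adjusted p 0.0416). The other 8 had positive values from 0.17 for Sdc1 to 0.91 ± 0.30 for Irf4, of which 6 had an unadjusted p under 0.05 (9.03% of all genes were higher at that p) and none passed (edgeR adjusted p 0.0763 for Prdm1 at 0.66 ± 0.18, the smallest of them). All 3 PARPi-ICB libraries lay above all 3 PARPi libraries for Pou2af1, Prdm1, Xbp1, Mzb1 and Fkbp11, 5 of 9 genes against 12.3% of all genes. The Fkbp11 call was lost without PARPi-ICB replicate 1 or 3 or any 1 PARPi replicate (edgeR adjusted p 0.0531 to 0.247). It was also lost without the libraries rich in acinar RNA (0.0671) and in a fit of the compared groups alone (0.141). The fits with the quality covariate and without the filter on low counts lost it too.

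Under olaparib with anti-VEGFA the checkpoint antibodies gave the same order for Fkbp11 with no call. Combo tumours, at 15.6 to 17.8 CPM, all lay above PARPi-aVEGF tumours, at 13.2 to 13.5 CPM, a difference of 0.37 ± 0.09 (unadjusted p 0.0011 and adjusted p 0.132 in edgeR, called by DESeq2), where 6.17% of all genes were higher at that unadjusted threshold. That was the only gene of the 9 apart in every library, where 3.04% of all genes were, and edgeR called 0.0882% of all genes in either direction. The other 8 differed by 0.00 to 0.38, with SE of 0.08 to 0.32. For Pou2af1 the difference was 0.08 ± 0.22, with a 95% interval from -0.35 to 0.52 that is not adjusted for the number of genes.

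Anti-VEGFA brought no called change on either background. In PARPi-aVEGF against PARPi tumours edgeR called 0 of 9 genes, with 1 at an unadjusted p under 0.05 (Prdm1, 0.45 ± 0.17, edgeR adjusted p 0.203), where 7.94% of all genes were higher at that p, and DESeq2 also called 0. edgeR called 0.573% of all genes in either direction, and Prdm1 was the 1 gene of the 9 apart in every library, against 7.51% of all genes. In Combo against PARPi-ICB tumours edgeR and DESeq2 called 0 of 9, 0 had an unadjusted p under 0.05, against 4.11% of all genes, and edgeR called 0 of all genes. No gene of the 9 was apart in every library, where 1.91% of all genes were. The differences there ran from -0.29 ± 0.24 for Pou2af1 to 0.02 ± 0.33 for Jchain. The interval for Pou2af1, -0.76 to 0.17, leaves room for a sizeable fall as well as for a small rise.

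Olaparib added to checkpoint antibodies also gave no call. In PARPi-ICB against ICB tumours all 9 values were positive, from 0.26 for Sdc1 to 0.87 ± 0.26 for Pou2af1, and 7 had an unadjusted p under 0.05 (8.89% of all genes), but the smallest adjusted p in edgeR was 0.101 for Pou2af1, where 0.871% of all genes were called in either direction. DESeq2 called Pou2af1. Libraries were apart for Pou2af1, Irf4, Xbp1, Mzb1 and Sdc1, 5 of 9 genes against 10.1% of all genes.

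Whether the agents acted differently in each other's presence was tested as an interaction. For the change with checkpoint antibodies under olaparib minus the change without it, 7 of 9 values were negative, with Jchain at -1.17 ± 0.51 and Pou2af1 at -0.78 ± 0.37 (unadjusted p 0.0335 and 0.046, adjusted p 0.958 for both in edgeR). For the change with checkpoint antibodies under olaparib and anti-VEGFA minus that under olaparib alone, 9 of 9 were negative, with Pou2af1 at -0.73 ± 0.34 and Prdm1 at -0.56 ± 0.24 (unadjusted p 0.0463 and 0.0285, adjusted p 0.754 and 0.704 in edgeR). The median over all genes tested was 0.000225 for the first interaction and -0.00134 for the second. Most of the 9 genes varied together, so their signs are not independent. edgeR and DESeq2 called 0 of 9 genes in both, edgeR called 0 of all genes, and 2 of the 9 had an unadjusted p under 0.05 in each, against 5.21% of all genes for the first interaction and 6.55% for the second.

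The 9 genes varied together from tumour to tumour. Over 20 libraries Pearson's r of log2 CPM was 0.901 to 0.983 for the 21 pairs among Pou2af1, Irf4, Prdm1, Xbp1, Mzb1, Jchain and Derl3. Once the group means were taken away these pairs still had an r of 0.699 to 0.949, so that animals of 1 group differed in all 7 at once. Pairs with Fkbp11 had an r of 0.590 to 0.717 over the libraries and 0.236 to 0.559 within groups, and pairs with Sdc1 0.641 to 0.767 and 0.214 to 0.406. All values come from the same 20 libraries and the same scaling, and are given as a description.

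**Figure D3:**
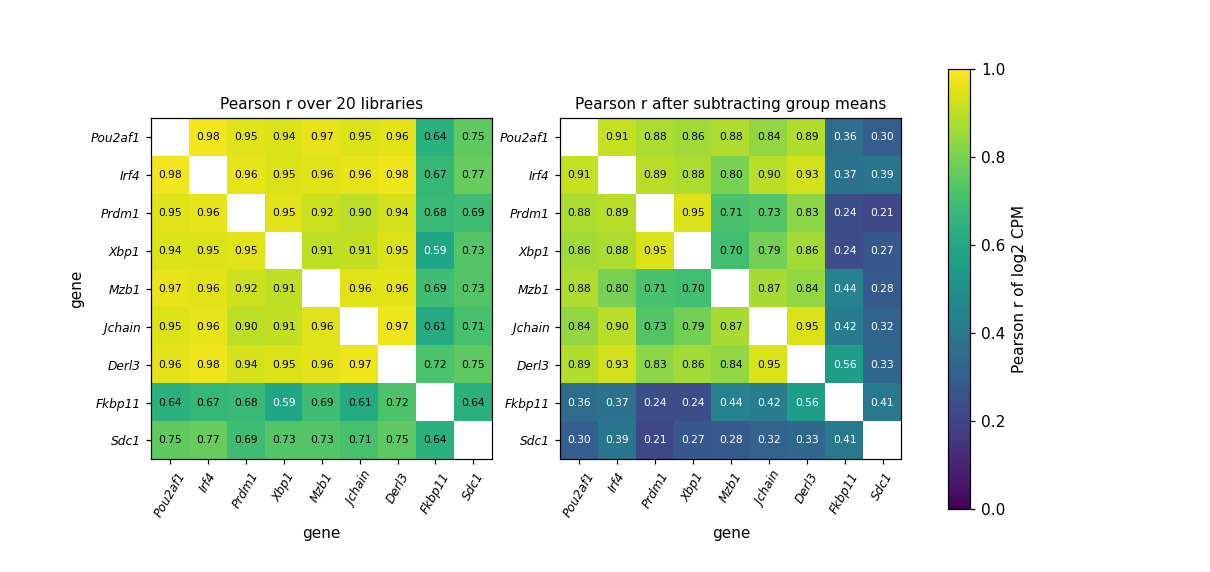
Pearson's r of log2 CPM between each pair of the 9 genes over 20 libraries (left) and after the group means were subtracted (right), with rows and columns in the same gene order and colour from 0 to 1. The block of the first 7 genes stays at 0.70 or more on the right, while the rows of Fkbp11 and Sdc1 drop to between 0.21 and 0.56.

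The matrices of r show the pairs, and the deviations of single tumours show which animals they come from. PARPi-ICB replicate 2 and PARPi replicate 3 were the lowest of their groups for 9 of 9 genes. Combo replicate 2 was lowest for 8 and PARPi-aVEGF replicate 2 for 7, while Combo replicate 3 and PARPi-aVEGF replicate 4 were each highest for 7. Low tumours were found with and without acinar RNA: Combo replicate 2 held it and PARPi-aVEGF replicate 2 did not, and PARPi-aVEGF replicate 4 held it and was high. For Irf4 the range was 29.8 to 85.1 CPM in Combo, 32.1 to 37.8 CPM in ICB and 10.7 to 13.4 CPM in control tumours.

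**Figure D4:**
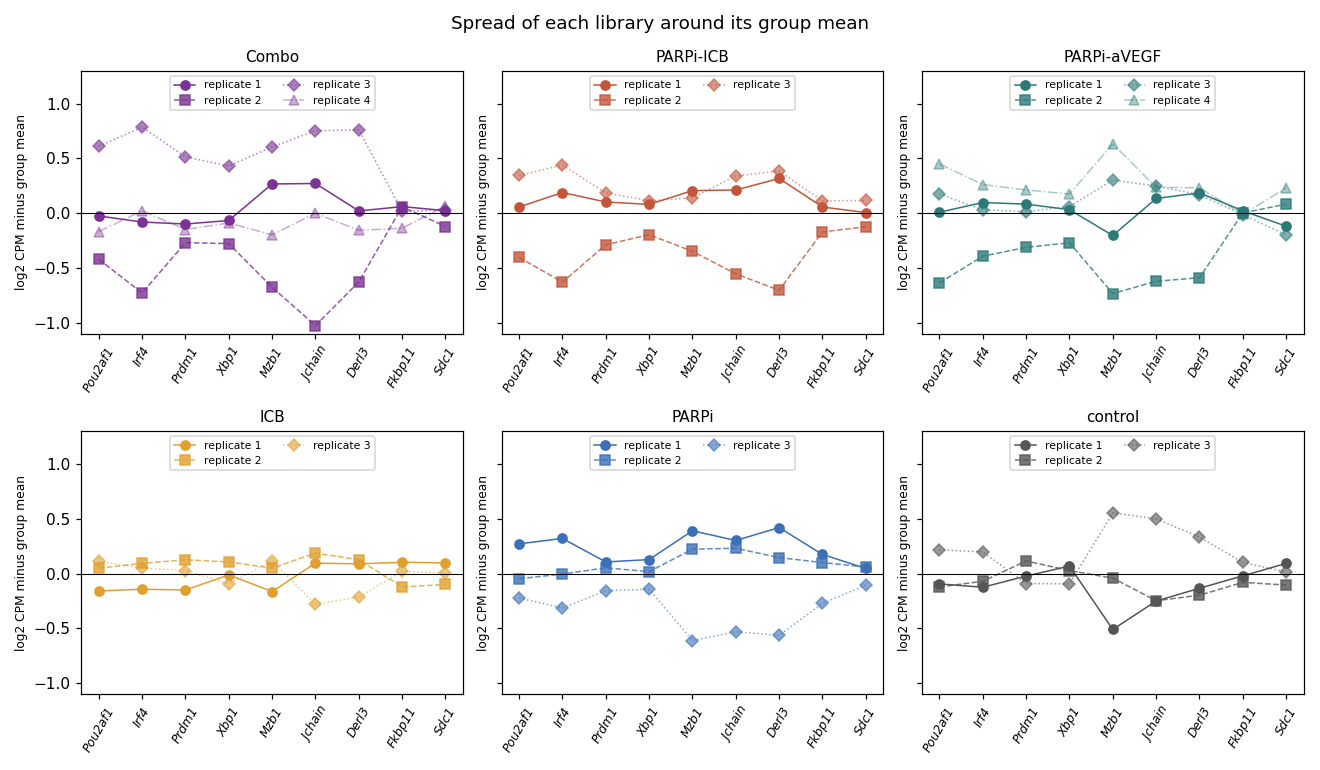
Deviation of each library from its group mean in log2 CPM (vertical axis) for the 9 genes (horizontal axis), 1 panel per group and 1 line per replicate. Lines run high or low over most genes at once, such as Combo replicates 3 and 2, and converge near 0 at Fkbp11 in Combo and PARPi-aVEGF.

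Outside the 9 genes, the genes most like them were sought among 13010 named genes that averaged 1 CPM or more, by Pearson's r over the 20 libraries with the mean z score of the 9. Immunoglobulin and T cell receptor genes were left out of this search. The first 10 were Bhlha15 (r = 0.984), Cacna1h (0.983), Txndc5 (0.977), Tnfrsf13b (0.976), Tmem154 (0.969), Cmah (0.968), Cyfip2 (0.966), Lax1 (0.966), Atp2a3 (0.965) and Dnaaf3 (0.956). Bhlha15 encodes a transcription factor of secretory cells, plasma and acinar cells included, Txndc5 a disulphide isomerase, and Tnfrsf13b the receptor TACI of B lineage cells. Within groups the r of Bhlha15 was 0.947 and that of Dnaaf3 0.794. Of immunoglobulin genes, Igkc, the kappa light chain, had an r of 0.985 with Irf4 and 0.981 with Jchain, while Ighm, the heavy chain of IgM, had 0.484 with Jchain and 0.883 with Fkbp11.

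Lists of genes related to plasma cells were read as well, each given beside the share of all genes called higher. Of 18 other plasma cell regulators and surface genes, 14 rose in Combo (12.6% of all genes), 14 in PARPi-ICB (9.58%), 11 in PARPi-aVEGF (9.99%), 4 in ICB (1.23%) and 0 in PARPi (0.0551%), by edgeR adjusted p under 0.05. For PARPi 12 of the 18 had an unadjusted p under 0.05 (11.4% of all genes in either direction). With the quality covariate 13 of the 18 were called higher in Combo, 6 in PARPi-ICB and 0 in the other groups. The median log2 fold change was 1.15 in Combo, 1.14 in PARPi-ICB, 1.00 in PARPi-aVEGF, 0.65 in ICB and 0.68 in PARPi. In Combo and in PARPi-ICB 15 of the 18 values were positive. Bhlha15 rose by 2.27 ± 0.31 in Combo, 2.43 ± 0.33 in PARPi-ICB, 1.90 ± 0.31 in PARPi-aVEGF and 1.44 ± 0.32 in ICB. Cd27, a costimulatory receptor of memory B, plasma and T cells, rose by 1.85 ± 0.26 in Combo and 1.66 ± 0.27 in PARPi-ICB. Which cells the RNA of the 18 genes came from was not tested.

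Immunoglobulin constant regions took a large share of the counts. The 12 genes together had 28322 to 71177 CPM in Combo, 35100.1 to 61689 CPM in PARPi-ICB, 22209 to 36843 CPM in PARPi-aVEGF, 27859 to 28296 CPM in ICB, 19857 to 31424 CPM in PARPi and 7784 to 11266 CPM in control tumours, with every treated tumour above every control. Of the 12, 7 rose in Combo (12.6% of all genes), 5 in PARPi-ICB (9.58%), 3 in PARPi-aVEGF (9.99%), 3 in ICB (1.23%) and 0 in PARPi (0.0551%). In PARPi 5 had an unadjusted p under 0.05 (11.4% of all genes in either direction). Ighm rose by 3.20 ± 0.42 in Combo, 3.76 ± 0.44 in PARPi-ICB and 2.47 ± 0.41 in ICB (edgeR adjusted p 8.14e-05, 0.000129 and 0.00958), and was 0.85 ± 0.37 in PARPi-aVEGF and 0.02 ± 0.39 in PARPi (0.125 and 0.994). Igkc rose by 2.34 ± 0.35 in Combo, 2.34 ± 0.36 in PARPi-ICB, 1.95 ± 0.34 in PARPi-aVEGF and 1.63 ± 0.35 in ICB. Igha, the heavy chain of IgA, rose by 2.15 ± 0.57 in Combo, 2.04 ± 0.59 in PARPi-ICB and 2.21 ± 0.58 in PARPi-aVEGF. Constant region genes resemble each other closely, and reads shared between them cannot be placed with certainty.

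Genes of B cells before plasma cell differentiation were read next. Of 18 B cell identity genes, 10 rose in Combo (12.6% of all genes), 10 in PARPi-ICB (9.58%), 6 in PARPi-aVEGF (9.99%) and 0 in ICB (1.23%). In Combo 1 fell (11.5% of all genes), in PARPi-ICB 1 (6.52%), in PARPi-aVEGF 0 (7.8%) and in ICB 2 (0.976%). In PARPi 0 were called, and 7 had an unadjusted p under 0.05 (11.4% of all genes). In ICB 10 had an unadjusted p under 0.05 (17.6% of all genes), and 9 of the 18 values were positive. The median log2 fold change was 0.94 in Combo, 0.76 in PARPi-ICB, 0.59 in PARPi-aVEGF, -0.05 in ICB and 0.50 in PARPi. The ICB median lay between genes that moved in opposite directions, with Fcrla at 1.10 ± 0.29 (edgeR adjusted p 0.0575). Fcrla rose by 2.04 ± 0.29 in Combo and 2.00 ± 0.30 in PARPi-ICB, and Tnfrsf13c, the receptor for the survival factor BAFF, by 1.73 ± 0.31 and 1.90 ± 0.32 in those groups. Bank1, a B cell signalling scaffold, fell by 1.16 in ICB (SE 0.30, edgeR adjusted p 0.0468). Of the 6 germinal centre genes tested out of 8, 2 rose in Combo (12.6% of all genes), 2 in PARPi-ICB (9.58%), 3 in PARPi-aVEGF (9.99%) and 0 in ICB and PARPi (1 at an unadjusted p under 0.05 in each, against 17.6% and 11.4% of all genes), with Mef2b up by 1.58 ± 0.29 in PARPi-ICB.

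Secretory pathway genes shared by all cells changed by small amounts. Of 34 unfolded protein response and secretory genes, 18 rose in Combo (12.6% of all genes), 16 in PARPi-ICB (9.58%) and 13 in PARPi-aVEGF (9.99%), and none fell. In ICB and PARPi 0 were called, with 5 at an unadjusted p under 0.05 in each (17.6% of all genes in ICB and 11.4% in PARPi). Their median was 0.24 in Combo, 0.23 in PARPi-ICB, 0.19 in PARPi-aVEGF, 0.09 in ICB and 0.09 in PARPi. The cochaperone gene Dnajb9, a target of the Xbp1 product, rose by 0.55 ± 0.12 in Combo, 0.64 ± 0.13 in PARPi-ICB and 0.39 ± 0.12 in PARPi-aVEGF. Of 12 survival ligands and receptors, 7 rose in Combo (12.6% of all genes), 6 in PARPi-ICB (9.58%), 3 in PARPi-aVEGF (9.99%) and 2 in ICB (1.23%), and 1 fell in Combo (11.5%) and in PARPi-ICB (6.52%). In PARPi 0 were called, and 4 had an unadjusted p under 0.05 (11.4% of all genes). Tnfrsf13b rose by 1.53 ± 0.23 in Combo, 1.65 ± 0.24 in PARPi-ICB, 1.37 ± 0.23 in PARPi-aVEGF and 1.10 ± 0.24 in ICB. Cxcl12, a chemokine that holds plasma cells in their niche, fell by 0.31 in Combo and by 0.56 in PARPi-ICB.

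**Figure D5:**
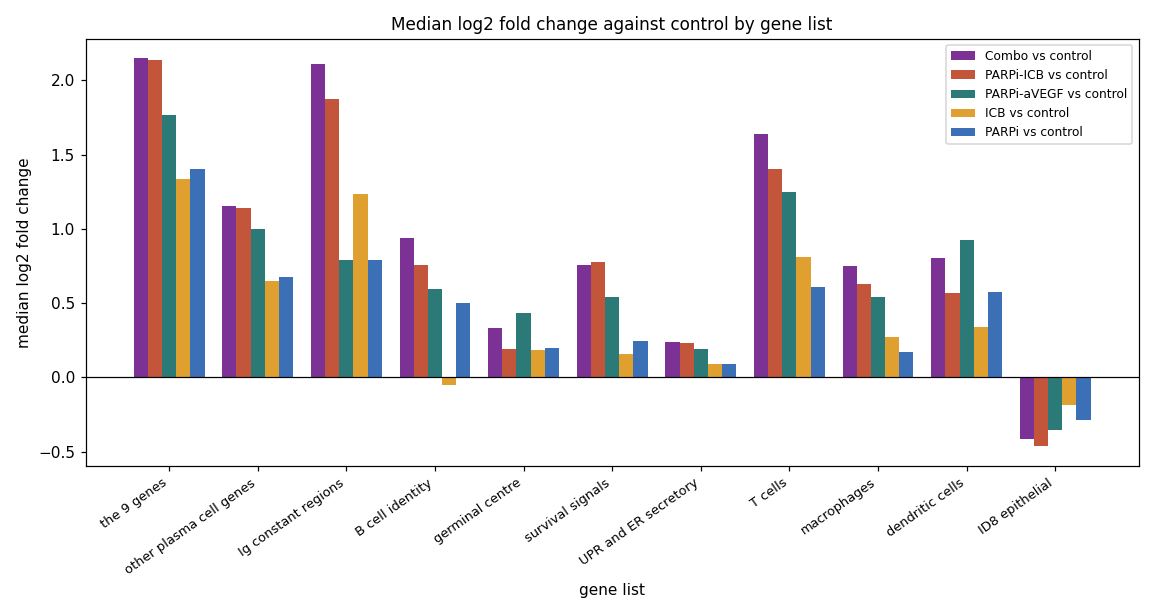
Median log2 fold change against control (bars from 0) of the 9 genes and of 10 gene lists, with 1 bar for each treatment from Combo at the left to PARPi at the right of each cluster. The 9 genes have medians from 1.33 to 2.15, the secretory list stays between 0.09 and 0.24, and the medians of the tumour cell genes lie below 0.

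The bars of list medians place the 9 genes beside markers of other cells that moved with them. T cell markers, which include cells that use Irf4 and Prdm1, rose for 10 of 10 genes in Combo (12.6% of all genes), PARPi-ICB (9.58%) and PARPi-aVEGF (9.99%), 2 of 10 in ICB (1.23%) and 0 of 10 in PARPi (0.0551%). In PARPi 6 had an unadjusted p under 0.05 (11.4% of all genes). Their summed level was 140 to 214 CPM in Combo, 107 to 187 CPM in PARPi-ICB, 103 to 163 CPM in PARPi-aVEGF, 87.0 to 111 CPM in ICB, 80.1 to 105 CPM in PARPi and 52.1 to 70.2 CPM in control tumours. Of 8 macrophage genes 7 rose in each of Combo, PARPi-ICB and PARPi-aVEGF, beside the same 3 shares of all genes. In ICB and PARPi 0 were called, with 3 in ICB (17.6% of all genes) and 1 in PARPi (11.4%) at an unadjusted p under 0.05. Summed macrophage levels were 1517 to 1872 CPM in Combo, 1328 to 2034 CPM in PARPi-ICB, 1386 to 1595 CPM in PARPi-aVEGF, 1189 to 1386 CPM in ICB, 1173 to 1190.5 CPM in PARPi and 962 to 1095 CPM in controls. Of 9 dendritic cell genes 7 rose in Combo (12.6% of all genes), 2 in PARPi-ICB (9.58%), 7 in PARPi-aVEGF (9.99%) and 0 in ICB and PARPi, with 3 in ICB (17.6%) and 6 in PARPi (11.4%) at an unadjusted p under 0.05. None of these markers was at 0 in every library. The part of these cells in the levels of Irf4 and Prdm1 was not tested.

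Markers of the tumour cells moved in both directions. Of 10 ID8 epithelial and mesothelial genes, 5 fell and 2 rose in Combo, 5 fell and 2 rose in PARPi-ICB, 6 fell and 2 rose in PARPi-aVEGF, 2 fell and 1 rose in ICB and 0 were called in PARPi, where 7 had an unadjusted p under 0.05 (11.4% of all genes). Of all genes 11.5% fell and 12.6% rose in Combo, 6.52% fell and 9.58% rose in PARPi-ICB, 7.8% fell and 9.99% rose in PARPi-aVEGF, 0.976% fell and 1.23% rose in ICB, and 0.011% fell and 0.0551% rose in PARPi. The summed level of the 10 was 2091 to 2435 CPM in Combo, 2082 to 2343 CPM in PARPi-ICB, 2025 to 2332 CPM in PARPi-aVEGF, 2347 to 2588 CPM in ICB, 2401 to 2438 CPM in PARPi and 2674 to 3026 CPM in controls. Msln, a mesothelial and ovarian tumour antigen, fell by 0.41 in Combo and by 0.51 in PARPi-ICB, and the keratin gene Krt7 by 0.58 and 0.96. The 2 that rose were Epcam, an epithelial adhesion gene, by 1.54 ± 0.25 in Combo and 1.75 ± 0.26 in PARPi-ICB, and Cdh1, the E-cadherin gene, by 1.04 ± 0.18 in Combo and 0.86 ± 0.18 in PARPi-ICB. The part of tumour cells in the level of Sdc1 was not tested.

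Other tissue was present in single libraries. The 16 acinar genes together reached 6214 CPM in a Combo tumour, 1224 CPM in a PARPi-aVEGF tumour and 257 CPM in an ICB tumour, against 16.3 to 19.5 CPM in PARPi-ICB, 17.6 to 20.4 CPM in PARPi and 23.4 to 39.0 CPM in control tumours. Without the 4 libraries rich in them edgeR called 9 genes in Combo, 9 in PARPi-ICB, 7 in PARPi-aVEGF, 4 in ICB and 0 in PARPi. Adipocyte genes rose for 3 of 5 in Combo (12.6% of all genes), 1 of 5 in PARPi-ICB (9.58%) and 3 of 5 in PARPi-aVEGF (9.99%). Of 7 genes listed for lymphoid stroma and follicles only 3 were tested. Of these, 2 of 3 rose in Combo and 1 of 3 in both PARPi-ICB and PARPi-aVEGF, beside the same shares of all genes. Ltb was up by 1.22 ± 0.17 in Combo, and the cells it came from were not tested. Ccl19 and Ccl21a, chemokines of such tissue that have near-identical copies in the genome, were at 0 in every library.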

How the data were processed

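RNA-seq of 20 tumours was read from the raw counts per gene as the authors deposited them. Per the submitters' processing notes STAR, HTSeq and GRCm38 were used; versions, annotation and strand setting are not given in the sources used here. The authors' deposited log2 RPKM values, whose implied lengths match the gene span with introns, served as an alternative only. Per the labels the libraries were stranded and made from total RNA with cytoplasmic RNA depleted.

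Counts were fitted with edgeR 4.0.16 (TMM scaling, filterByExpr with a minimum count of 10, quasi-likelihood F test over all 6 groups) on 18144 genes, with Benjamini-Hochberg adjustment over all genes of a comparison and a threshold of 0.05. SE was taken as |log2 fold change| over √F. Alternatives used DESeq2 1.42.0, limma 3.58.1, no filter, other scaling, a replicate block, a quality covariate and left-out libraries. The script was tested on simulated data. Library totals were 26.9 M to 34.7 M counts. The genes, the lists and the rule for named genes (all 9, the 4 of each list with the smallest p over the 6 groups, and the 10 most alike) were chosen with earlier results of these data known. Separate animals are read from titles alone. The p-values in edgeR set a difference between groups against the spread between these samples, estimated from all 20 libraries in the main fit.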

Additional observations from a re-analysis of the deposited data

Results flagged for a closer look

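Among groups of 4 tumours, 18 sets of values of the 9 genes were examined for a sample far from the others, and 2 were found. Chance alone flags about 1 in 20 sets, so 2 of 18 could arise by chance. Both came from 1 tumour and from 2 genes with an r of 0.949 within groups, so they are not independent. That tumour was PARPi-aVEGF replicate 2. Its Derl3 level of 15.7 CPM lay below 26.6 to 27.8 CPM in the other 3 PARPi-aVEGF tumours. Its Jchain level of 1477 CPM lay below 2495 to 2700.4 CPM in those tumours. It was the lowest of its group for 7 of 9 genes, and its acinar enzymes were not raised.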

How the results depend on the processing

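For Combo against control 9 genes were called under all 8 alternatives and 8 to 9 when 1 library was left out. For PARPi-ICB against control the counts were 7 to 9, and 8 to 9 with 1 library left out. For PARPi-aVEGF against control they were 0 with the quality covariate and 7 to 8 otherwise, also with 1 library left out. For ICB against control the 6 calls became 0 with limma on log2 RPKM and 0 with the quality covariate, and 1 to 4 with 1 library left out. For PARPi against control the 1 call became 4 without the filter on low counts, 2 with the replicate block, 6 with DESeq2, 5 with the compared groups alone, 0 with limma, 0 without libraries rich in acinar RNA, 0 with the quality covariate, and 0 to 1 with 1 library left out. For PARPi-ICB against PARPi the 1 call became 2 with DESeq2, 0 without the filter, 0 with the compared groups alone, 0 without libraries rich in acinar RNA, 0 with the quality covariate, and 0 to 2 with 1 library left out. DESeq2 called 1 gene for Combo against PARPi-aVEGF and 1 for PARPi-ICB against ICB, where edgeR called 0. The cause was not tested. Of single values Fkbp11 changed sign for PARPi against control without PARPi replicate 1, at -0.0401 beside 0.05 (-0.04 to 0.17 with 1 library left out), and 647 of 648 values against control were positive. Those 648 values are refits of the same libraries and are not independent.

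The replicate numbers did not pair the samples: same-numbered libraries had a correlation of deviations of -0.219 to 0.173, with a median of 0.00884. The replicate block moved no other count by over 1.5 times. Depth limits Mzb1 most, at 11 to 126 counts per library.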
